A study of Homo sapiens with 6 samples.

Results

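The genes described here encode nuclear-encoded protein subunits of the mitochondrial respiratory chain and ATP synthase, complexes I to V. They were chosen by symbol, as protein-coding rows, with earlier results of these data known. The symbols were those of the NDUFA, NDUFB, NDUFC, NDUFS, NDUFV, SDH, UQCR and ATP5 subunit families. CYC1 and the COX genes of the widely expressed subunits, from COX4I1 to COX8A, were included too. This gave 80 of the 14538 genes listed, with 36 genes for complex I, 4 for complex II, 10 for complex III, 12 for complex IV and 18 for complex V. A subunit whose symbol has another form is not included, so the set of a complex may be incomplete. NDUFA4 was counted in complex IV, where its protein sits. ATP5IF1 is the inhibitor of the ATP synthase, COX7A2L helps to join complexes III and IV, and NDUFA4 carries a complex I name. UQCRHL is an intronless copy of UQCRH.

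The cells were HEK293T, a human embryonic kidney line, in which INTS8 carries a homozygous miniAID tag. This degron marks a protein for the proteasome once the plant hormone auxin is added. INTS8 belongs to Integrator, which cuts RNA as it is being made and so ends transcription of small nuclear RNA genes and, near their start, of many others. The study held 3 libraries of INTS8-AID cells given 100 µM auxin and 3 libraries of INTS8-AID cells without auxin, in a 48 h experiment. Both groups carry the tag, and there were 0 libraries of untagged cells. Effects of auxin itself and of INTS8 loss therefore cannot be told apart here. The labels do not say whether the cells were a single clone or whether the libraries came from separate cultures. The p-values therefore measure the spread between these libraries, which may be technical.

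Complex I passes electrons from NADH to coenzyme Q, and complex II passes them there from succinate. Complex III hands them to cytochrome c and complex IV to oxygen, while complex V makes ATP from the proton gradient that complexes I, III and IV build. Each complex other than complex II also holds subunits made from mitochondrial DNA, so its parts come from separate genomes. Some nuclear-encoded subunits form a core that carries the chemistry and is shared with the enzymes of bacteria. The others are accessory subunits, many of them short proteins around that core, and most were added in eukaryotes.

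The data are the authors' deposited table for the auxin comparison, with a mean level over all 6 libraries, a fold change and an adjusted p for each gene. It holds no values per library. Which group is on top of the fold change is not stated in the header, and it was read as auxin by the convention of treated over untreated. If that reading is wrong, each rise below is a fall and each fall a rise. Group levels were worked out from these columns, for groups of equal size, and are in the authors' normalized units. Depth per library is unknown. A standard error (SE) was derived from each fold change and its p, assuming a two-sided Wald test. INTS8 mRNA stood at 1.28-fold (adjusted p 1.33e-07) per the authors' deposited table, which says nothing of the protein. Of 7 neuronal markers, 4 were listed and 4 were higher, among them TUBB3 at 22.0-fold per the authors' deposited table, with summed levels of 22303 with auxin and 2739 without auxin. Of 4 epithelial markers 4 were listed and KRT8 and KRT18 were higher, with summed levels of 5431 with auxin and 4243 without auxin. Of 5 blood markers 1 was listed (HBB, at a mean level of 1), of 4 fibroblast markers 1 (VIM, which did not pass) and of 4 muscle markers 0. Whether the changes in marker genes had a part in those of the subunit genes was not tested.

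With auxin, the respiratory chain genes shifted by small amounts, and mostly downward where they passed the test. At an adjusted p of 0.05 per the authors' deposited table, 26 of the 80 genes were lower, 5 were higher and 49 did not pass. The lower share of 32.5% lay near that of all listed genes (28.9%), of protein-coding genes (31.9%) and of protein-coding genes at a mean level of at least 1000 (35.8%). The higher share was 6.25%, beside 27.8% of all listed genes, 28.0% of protein-coding genes and 25.8% of protein-coding genes at a mean level of at least 1000. The median log2 fold change was -0.05 for the 80 genes, 0.00 for all listed genes and -0.05 for protein-coding genes at that level. With all log2 fold changes centred on their median over genes with a mean level of 100 or more, 8 of the 80 genes were higher and 24 lower.

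The changes of the subunit genes were also small. Their folds ran from 0.664 for NDUFA10 to 1.43 for ATP5IF1 per the authors' deposited table, and 0 of 80 changed 2-fold. The interquartile range of their log2 fold changes ran from -0.22 to 0.06, and that of protein-coding genes at a mean level of 1000 or more from -0.27 to 0.17. For the 446 protein-coding genes at that level with transcripts under 1000 bases it ran from -0.15 to 0.12, a spread like that of the subunit genes. Of the 80 subunit genes 45 had transcripts that short, and their interquartile range ran from -0.12 to 0.05. Of all 7801 protein-coding genes at that level, 84.6% fell inside the fold range of the subunit genes. Only NDUFA10 was both past the test and changed by at least 1.5-fold, against 14.4% of the protein-coding genes at that level.

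**Figure D1:**
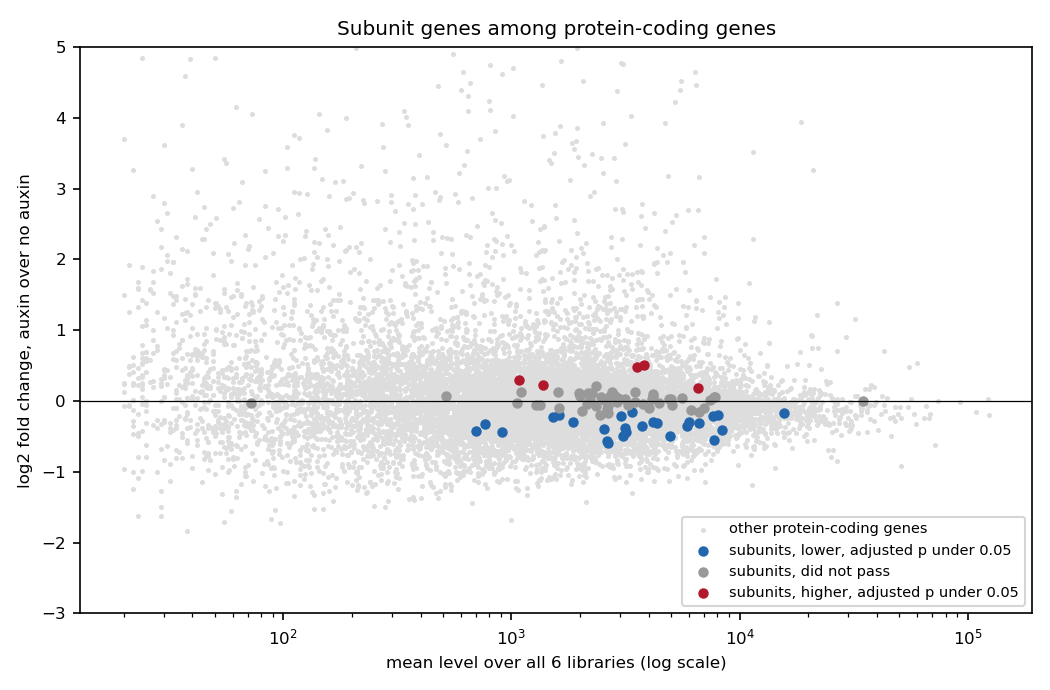
Log2 fold change (auxin over no auxin) against mean level over all 6 libraries for the 80 subunit genes (coloured) and 12424 other protein-coding genes at a mean level of at least 20 (pale grey), of which 26 lie outside the plotted range. The subunit genes sit between -0.59 and 0.51, and 79 of 80 have a mean level of at least 100.

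The complexes differed in how many of their genes passed. Complex II had 3 of 4 genes lower and complex V 7 of 18 lower with 1 higher. Complex I had 12 of 36 lower with 1 higher, and complex III 3 of 10 lower. Complex IV had 1 of 12 lower and 3 higher. The lower shares of complexes I (33.3%), III (30%) and V (38.9%) lay near the background. That was 31.9% of protein-coding genes and 35.8% of those at a mean level of at least 1000. Complex II (75%) lay above it, with only 4 genes, and complex IV (8.33%) below. The higher shares were 2.78%, 0%, 0%, 25% and 5.56% for complexes I to V, beside 28.0% of protein-coding genes. The median log2 fold changes were -0.05 for complex I, -0.42 for complex II, -0.12 for complex III, 0.02 for complex IV and -0.08 for complex V. The differences between complexes were not tested, since genes are not replicates of a condition. The changes were not large: at a limit of 1.5-fold 1 gene of complex I stayed called and 0 of the other complexes.

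**Figure D2:**
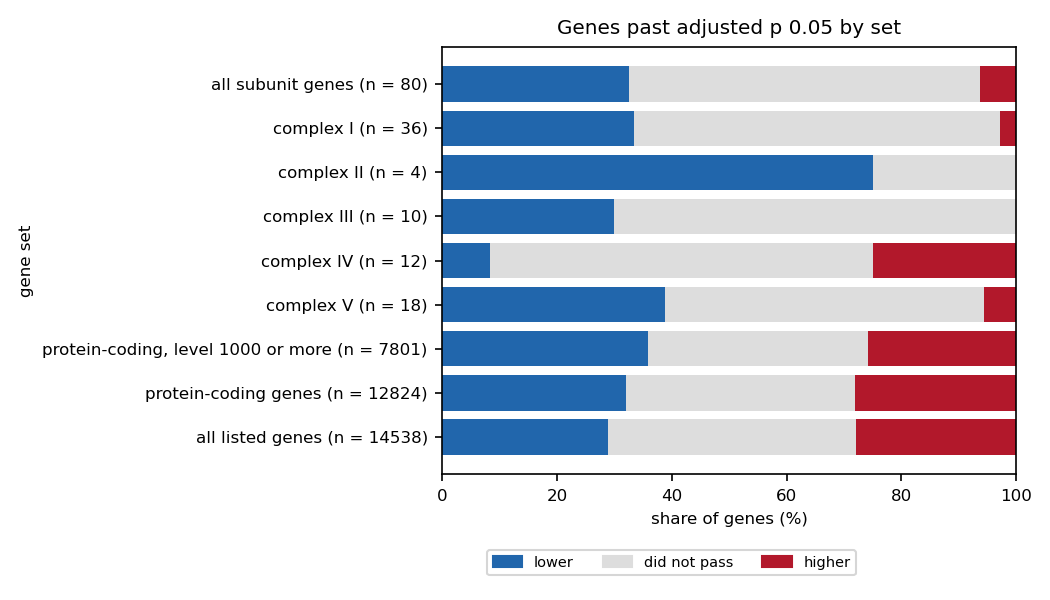
Share of genes (%) lower, not passed and higher at an adjusted p of 0.05, for the subunit genes, each complex and the background sets, with n on the axis. Complex II has the highest lower share (75%) of the complexes and complex IV the lowest (8.33%), while the higher share is under that of the background sets in each complex (25% in complex IV, the closest).

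Complex II, succinate dehydrogenase, is both a chain complex and an enzyme of the citric acid cycle. Its flavoprotein gene SDHA (chromosome 5, 218241 to 256697, hg38, plus strand) had a derived level of 6259 with auxin and 9187 without auxin. This was 0.681-fold per the authors' deposited table (log2 -0.55, SE 0.0729, adjusted p 2.26e-13). SDHA has near-identical pseudogene copies, and the sources used here do not say how shared reads were counted. SDHC and SDHD, which anchor the enzyme in the membrane and bind coenzyme Q, fell to 0.736-fold (adjusted p 7.72e-12) and 0.758-fold (adjusted p 2.94e-10) per the authors' deposited table. Their levels were 2702 and 2199 with auxin, against 3670 and 2901 without auxin. SDHB, the iron-sulfur subunit, did not pass, with 2574 with auxin and 2712 without auxin. Its fold per the authors' deposited table was 0.949 (adjusted p 0.329), and its 95% interval on the log2 scale ran from -0.20 to 0.05. The difference between SDHB and the other complex II genes was not tested. Per 1000 bases of transcript the levels of the complex II genes ran from 1642 to 2622 with auxin and from 2167 to 3849 without auxin.

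The assembly factors of complex II were listed too. SDHAF2, which helps attach flavin to SDHA, was at 0.778-fold (adjusted p 1.52e-05) per the authors' deposited table. SDHAF4, which binds flavinated SDHA before it meets SDHB, was at 0.532-fold (adjusted p 2.87e-07) per the authors' deposited table, at a mean level of 128. SDHAF1 and SDHAF3, which serve the iron-sulfur subunit, did not pass, at log2 fold changes of 0.16 and -0.21 per the authors' deposited table. In this complex 3 of 4 subunit genes and 2 of 4 assembly factor genes were lower, and 0 were higher. Beside these small counts, 28.9% of all listed genes and 31.9% of protein-coding genes were lower. In the same order, 27.8% and 28.0% were higher.

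The promoters of complex II genes are shown because this complex had the highest share of lower genes, together with those of the gene with the largest fall and the gene with the largest rise. Each runs from 250 bases before to 50 after the RefSeq gene start (GRCh38.p14), 5′ to 3′. Capitals mark matches on either strand to the NRF1 motif (GCGC, then N and T, then GCGC), the ETS motif CCGGAAGT of GABPA, or the YY1 motif AAGATGGC. These motifs do not overlap in the sequences shown. A promoter for SDHC was not used here.
SDHA (chr5:218070-218369, plus strand): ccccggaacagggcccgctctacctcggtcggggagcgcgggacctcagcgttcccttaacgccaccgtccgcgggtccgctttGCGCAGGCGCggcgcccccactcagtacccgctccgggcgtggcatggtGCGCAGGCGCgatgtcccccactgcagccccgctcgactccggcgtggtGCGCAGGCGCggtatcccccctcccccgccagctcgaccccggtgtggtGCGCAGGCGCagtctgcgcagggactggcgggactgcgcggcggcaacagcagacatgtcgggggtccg
SDHD (chr11:112086623-112086922, plus strand): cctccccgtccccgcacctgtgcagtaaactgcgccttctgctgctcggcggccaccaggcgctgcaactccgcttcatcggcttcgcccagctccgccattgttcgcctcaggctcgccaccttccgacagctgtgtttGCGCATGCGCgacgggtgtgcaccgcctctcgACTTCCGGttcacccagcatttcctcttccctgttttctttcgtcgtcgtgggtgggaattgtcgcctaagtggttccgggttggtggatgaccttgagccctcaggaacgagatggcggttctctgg
SDHB (chr1:17053983-17054282, minus strand): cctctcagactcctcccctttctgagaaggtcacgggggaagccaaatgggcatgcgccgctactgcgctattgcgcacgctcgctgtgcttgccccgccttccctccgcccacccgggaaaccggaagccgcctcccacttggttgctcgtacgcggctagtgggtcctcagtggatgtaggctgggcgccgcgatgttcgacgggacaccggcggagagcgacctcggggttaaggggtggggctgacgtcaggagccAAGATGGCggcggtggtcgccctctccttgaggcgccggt
NDUFA10 (chr2:240025293-240025592, minus strand): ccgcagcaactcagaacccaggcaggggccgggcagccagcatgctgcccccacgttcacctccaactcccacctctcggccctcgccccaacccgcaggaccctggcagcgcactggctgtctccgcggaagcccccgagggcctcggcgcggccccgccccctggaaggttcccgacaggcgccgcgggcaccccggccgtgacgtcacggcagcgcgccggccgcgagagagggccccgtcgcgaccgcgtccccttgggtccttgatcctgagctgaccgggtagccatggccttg
ATP5IF1 (chr1:28235874-28236173, plus strand): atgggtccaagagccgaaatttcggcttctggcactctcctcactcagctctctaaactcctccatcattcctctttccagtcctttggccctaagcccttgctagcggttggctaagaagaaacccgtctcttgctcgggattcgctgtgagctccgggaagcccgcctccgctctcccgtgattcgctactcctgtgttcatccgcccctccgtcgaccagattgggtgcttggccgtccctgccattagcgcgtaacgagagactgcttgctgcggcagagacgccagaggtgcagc

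The SDHA window held 4 NRF1 matches, whose first bases lay at -166, -117, -68 and -19 counted from the gene start. In SDHD an NRF1 match began at -110 and an ETS match at -78. In SDHB a YY1 match began at 10, past the start. The windows of NDUFA10 and ATP5IF1 held none of the 3 motifs. Among 65 subunit genes with a promoter in the RefSeq table, 31 (47.7%) held at least 1 of the motifs, beside 23.3% of 10409 promoters of listed protein-coding genes and 11.7% of all 35116 promoters. NRF1 matches were in 16 (24.6%), ETS matches in 10 (15.4%) and YY1 matches in 11 (16.9%) of the 65. In listed protein-coding genes the shares were 11.8%, 8.81% and 5.35%, and in all promoters 5.78%, 4.14% and 2.89%, in the same order. Matches were as frequent in subunit genes that were lower (10 of 20) as in those that did not pass (21 of 42), and 0 of 3 higher genes with a promoter held any. By complex, 12 of 31 promoters of complex I, 3 of 3 of complex II, 6 of 7 of complex III, 2 of 10 of complex IV and 8 of 14 of complex V held a match. A match is a description of letters and does not show that a factor binds.

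In complex I, the core subunits that carry flavin and iron-sulfur clusters or form the coenzyme Q site had 6 of 7 genes lower (85.7%). Beside this and the counts by part of complex I that follow, 28.9% of all listed genes and 31.9% of protein-coding genes were lower. In the same order, 27.8% and 28.0% were higher. NDUFS1, the largest subunit of the NADH-oxidising end, had 4125 with auxin and 5805 without auxin. That was 0.711-fold per the authors' deposited table (log2 -0.49, SE 0.0601, adjusted p 2.05e-15). NDUFV1, which binds NADH and flavin, had 5387 with auxin and 6633 without auxin, 0.812-fold per the authors' deposited table (adjusted p 0.00468). NDUFS7, near the coenzyme Q site, was at 0.769-fold (adjusted p 4.74e-05) per the authors' deposited table. NDUFS8, an iron-sulfur subunit, was at 0.814-fold and NDUFS3 at 0.861-fold per the authors' deposited table (adjusted p 4.47e-05 and 0.00252). NDUFV2, an iron-sulfur subunit, did not pass at 0.907-fold (adjusted p 0.0967) per the authors' deposited table, with 1937 with auxin and 2135 without auxin. All 7 core genes had folds below 1, and their median log2 fold change was -0.30.

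The 29 accessory genes of complex I had a median log2 fold change of 0.01, with 6 lower, 1 higher and 22 not passed. Their lower share was 20.7%, beside 31.9% of protein-coding genes. The accessory genes of the membrane arm next to the matrix arm had 2 of 9 lower. The larger fall was that of NDUFA10 (chromosome 2, 239960739 to 240025345, hg38, minus strand), an accessory subunit related to nucleoside kinases. It had 2115 with auxin and 3183 without auxin, 0.664-fold per the authors' deposited table (log2 -0.59, SE 0.0621, adjusted p 2.46e-20), the largest fall among the 80 genes. NDUFA3 was at 0.872-fold (adjusted p 0.0368) per the authors' deposited table, and lost its call after centring. The others of this arm ran from NDUFA11 at 0.966-fold to NDUFA1 at 1.16-fold per the authors' deposited table.

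Accessory genes of the matrix arm had 3 of 9 lower (33.3%), near the 31.9% of protein-coding genes. NDUFV3, at the NADH-oxidising end, had 2571 with auxin and 3615 without auxin, 0.711-fold per the authors' deposited table (adjusted p 4.19e-12). NDUFA6 and NDUFA5 were at 0.799-fold (adjusted p 0.00144) and 0.856-fold (adjusted p 0.00340) per the authors' deposited table. NDUFA2, NDUFA7, NDUFA9, NDUFA12, NDUFS4 and NDUFS6 did not pass, at folds from 0.958 to 1.09 per the authors' deposited table. NDUFS4, whose loss causes Leigh syndrome and which spans 122700 bases, had a derived level of 531 with auxin and 505 without auxin.

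The NDUFB genes, whose proteins sit in the far part of the membrane arm, had 1 of 11 lower and 1 higher. Each share was 9.09%, beside 31.9% of protein-coding genes lower and 28.0% higher. NDUFB5 had 596 with auxin and 798 without auxin, 0.747-fold per the authors' deposited table (log2 -0.42, SE 0.0961, adjusted p 3.88e-05). NDUFB1 had 1477 with auxin and 1267 without auxin, 1.17-fold per the authors' deposited table (adjusted p 0.0162). The other 9 NDUFB genes, from NDUFB7 at 0.893-fold to NDUFB9 at 1.07-fold per the authors' deposited table, did not pass. Their 95% intervals stayed within -0.36 and 0.28 on the log2 scale. NDUFB10 was the most abundant of the NDUFB genes per 1000 bases, at 9494 with auxin and 9172 without auxin.

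**Figure D3:**
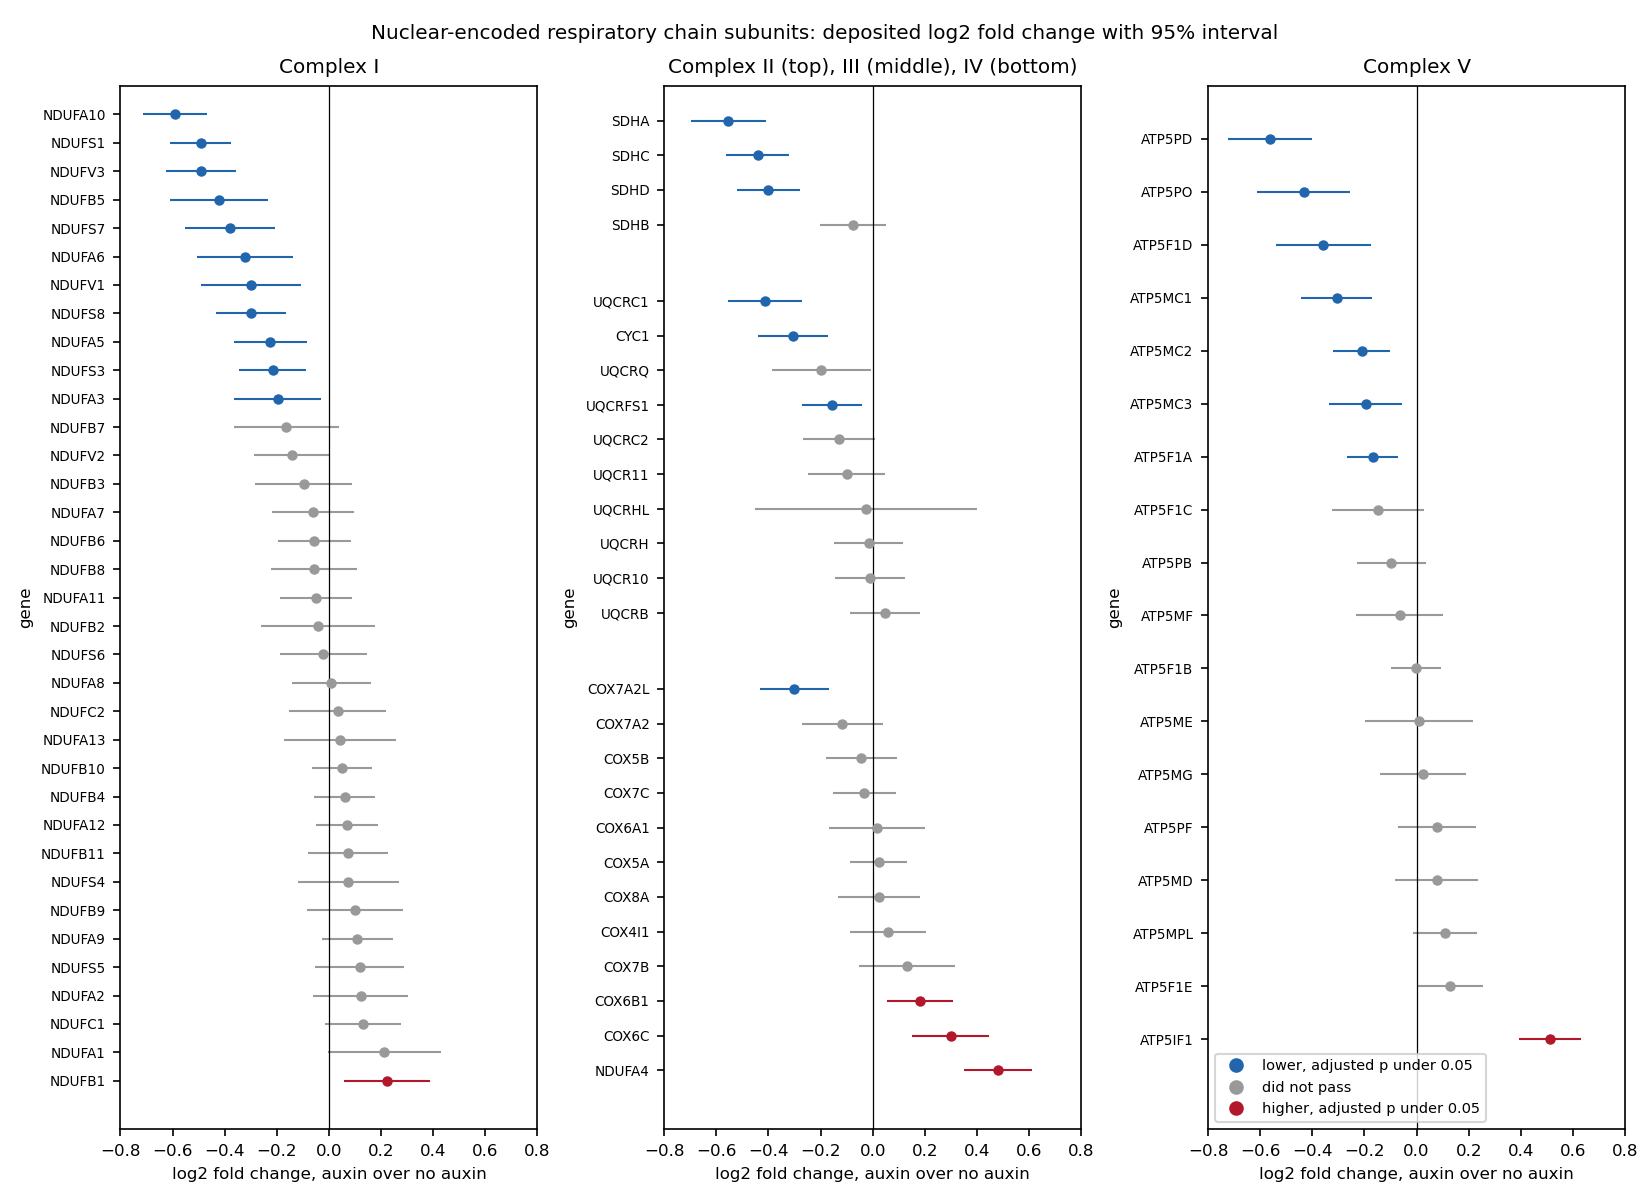
Deposited log2 fold change (auxin over no auxin) of 79 of the 80 subunit genes, with 95% intervals from the derived SE, sorted within each complex. Blue genes were lower, red genes higher and grey genes did not pass. NDUFA10, SDHA, UQCRC1, COX7A2L and ATP5PD have the lowest value of their complexes, and NDUFA4 and ATP5IF1 stand apart at the upper end of complexes IV and V.

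Complex III, which passes electrons from coenzyme Q to cytochrome c, had 3 of 10 genes lower and 0 higher. UQCRC1, a core protein related to mitochondrial processing peptidase, had 7191 with auxin and 9571 without auxin, 0.751-fold per the authors' deposited table (log2 -0.41, SE 0.0722, adjusted p 5.12e-08). Its partner UQCRC2 had 5823 with auxin and 6377 without auxin and did not pass (0.913-fold, adjusted p 0.100 per the authors' deposited table). The redox subunits both fell. CYC1, cytochrome c1, was at 0.809-fold (adjusted p 2.31e-05) and UQCRFS1, the Rieske iron-sulfur protein, at 0.897-fold (adjusted p 0.0164) per the authors' deposited table. UQCRFS1 lost its call after centring. The small subunits UQCRB, UQCRQ, UQCRH, UQCR10 and UQCR11 and the copy UQCRHL did not pass, at folds from 0.872 to 1.03 per the authors' deposited table. UQCRHL, at a mean level of 72, shares a run of 178 bases with UQCRH transcripts in GENCODE 29, so reads could belong to either gene.

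Complex IV, cytochrome c oxidase, has a catalytic core made from mitochondrial DNA, and its nuclear genes encode the subunits around it. Of these 12 genes 8 did not pass. COX4I1, COX5A and COX5B were at 1.04-fold, 1.02-fold and 0.970-fold per the authors' deposited table. COX4I1 had 7924 with auxin and 7606 without auxin. COX6A1, COX7A2, COX7B, COX7C and COX8A likewise did not pass, at 0.922 to 1.09-fold per the authors' deposited table. The 95% intervals of these 8 genes stayed within -0.27 and 0.31 on the log2 scale.

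In complex IV, 3 genes were higher. NDUFA4 (chromosome 7, 10931943 to 10940153, hg38, minus strand) had 4145 with auxin and 2973 without auxin. This was 1.39-fold per the authors' deposited table (log2 0.48, SE 0.0671, adjusted p 5.81e-12). COX6C had 1191 with auxin and 967 without auxin, 1.23-fold per the authors' deposited table (adjusted p 1.87e-04). COX6B1, which faces the intermembrane space near the cytochrome c site, was at 1.13-fold (adjusted p 0.0101) per the authors' deposited table. COX7A2L was the single lower gene, with 1667 with auxin and 2053 without auxin, 0.812-fold per the authors' deposited table (adjusted p 2.84e-05). Its relative COX7A2 did not pass (0.922-fold, adjusted p 0.204 per the authors' deposited table). Counted by its symbol, NDUFA4 would bring complex I to 2 higher genes and leave complex IV with 2.

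In complex V, the F1 head that makes ATP had 2 of 5 genes lower (40%). The share was 31.9% of protein-coding genes and 35.8% of those at a mean level of at least 1000. ATP5F1B, the catalytic beta subunit and the most abundant of the 80 genes, had 34773 with auxin and 34837 without auxin. It did not pass (0.998-fold, adjusted p 0.970 per the authors' deposited table), and its 95% interval was -0.10 to 0.09 on the log2 scale. ATP5F1A, the alpha subunit, had 14740 with auxin and 16560 without auxin, 0.890-fold per the authors' deposited table (adjusted p 0.00193). ATP5F1D, in the central stalk, was at 0.781-fold (adjusted p 3.64e-04) per the authors' deposited table. ATP5F1C and ATP5F1E did not pass, at 0.902-fold and 1.09-fold per the authors' deposited table.

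The 3 genes of subunit c, the ring that turns with proton flow, encode the same mature protein with different import presequences, and all 3 fell. ATP5MC1 had 3870 with auxin and 4784 without auxin, 0.809-fold per the authors' deposited table (adjusted p 3.10e-05). ATP5MC2 was at 0.864-fold (adjusted p 4.37e-04) and ATP5MC3 at 0.873-fold (adjusted p 0.0123) per the authors' deposited table. Their transcripts share runs of at most 20 bases in GENCODE 29. Per 1000 bases of transcript their summed level was 17740 with auxin and 20894 without auxin, a fold of 0.849. ATP5MC3 had the highest level per 1000 bases of the trio, at 7734 with auxin and 8857 without auxin.

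The peripheral stalk, which holds the head still, had 2 of 4 genes lower, beside 31.9% of protein-coding genes. ATP5PD had 2118 with auxin and 3130 without auxin, 0.677-fold per the authors' deposited table (log2 -0.56, SE 0.0826, adjusted p 5.69e-11). It overlaps KCTD2 on the other strand in GENCODE 29. ATP5PO, also called OSCP, had 772 with auxin and 1042 without auxin, 0.740-fold per the authors' deposited table (adjusted p 6.48e-06). ATP5PB and ATP5PF did not pass, at 0.935-fold and 1.05-fold per the authors' deposited table. The small membrane subunits ATP5ME, ATP5MF, ATP5MG, ATP5MD and ATP5MPL did not pass either, at 0.956 to 1.08-fold per the authors' deposited table. ATP5IF1 (chromosome 1, 28236109 to 28238105, hg38, plus strand), which blocks ATP breakdown by the enzyme, had 4466 with auxin and 3132 without auxin. At 1.43-fold per the authors' deposited table (log2 0.51, SE 0.0608, adjusted p 3.43e-16) it had the largest rise among the 80 genes.

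The genes were also divided into core subunits shared with bacterial enzymes and the others. This grouping was made after the values were seen and has no test, so its counts are a description. It holds the 7 core genes of complex I, the 4 of complex II, CYC1 and UQCRFS1 of complex III, and ATP5F1A to ATP5F1D, the 3 subunit c genes, ATP5PB and ATP5PO of complex V. Of these 22 genes 17 (77.3%) were lower, 0 were higher and 22 had a fold below 1 (21 with centring), with a median log2 fold change of -0.30. Of the other 58 genes 9 (15.5%) were lower, 5 were higher and 27 had a fold below 1 (23 with centring), with a median of 0.01. The lower share was 28.9% of all listed genes and 35.8% of protein-coding genes at a mean level of at least 1000. The others include the genes with the largest falls of all, NDUFA10 and ATP5PD, and also NDUFV3, NDUFB5 and UQCRC1. NDUFS4, NDUFS6 and NDUFA12 are accessory subunits with known homologues in alphaproteobacteria, and none of them passed. With these 3 in the first group, 17 of its 25 genes were lower and 23 had a fold below 1, with a median of -0.22. The 5 genes of the first group that did not pass were NDUFV2, SDHB, ATP5F1B, ATP5F1C and ATP5PB. Complex IV has 0 genes in the first group.

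Transcript length and level differed between these groups as well. The median transcript length was 1250 bases in the first group and 796 in the second, and the median mean level 4646 and 2651, in the same order. Among transcripts under 1000 bases 5 of 7 genes of the first group and 3 of 38 of the second were lower. Among longer transcripts the counts were 12 of 15 and 6 of 20. In protein-coding genes at a mean level of at least 1000 the lower shares were 22.6% of 446 short transcripts and 36.6% of 7355 longer ones. Across the 80 genes Pearson's r between log2 transcript length and log2 fold change was -0.22 (Spearman's rho -0.23), and across those 7801 protein-coding genes it was -0.0022 (rho -0.021). These are descriptions across genes, which are not independent replicates. The median derived SE was 0.0681 in the first group and 0.0777 in the second. The part of length or level in the split was not tested. The lengths are the authors', and equalled a GENCODE 29 transcript in only 9 of the 80 genes. This limits the length comparisons and the levels per 1000 bases.

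**Figure D4:**
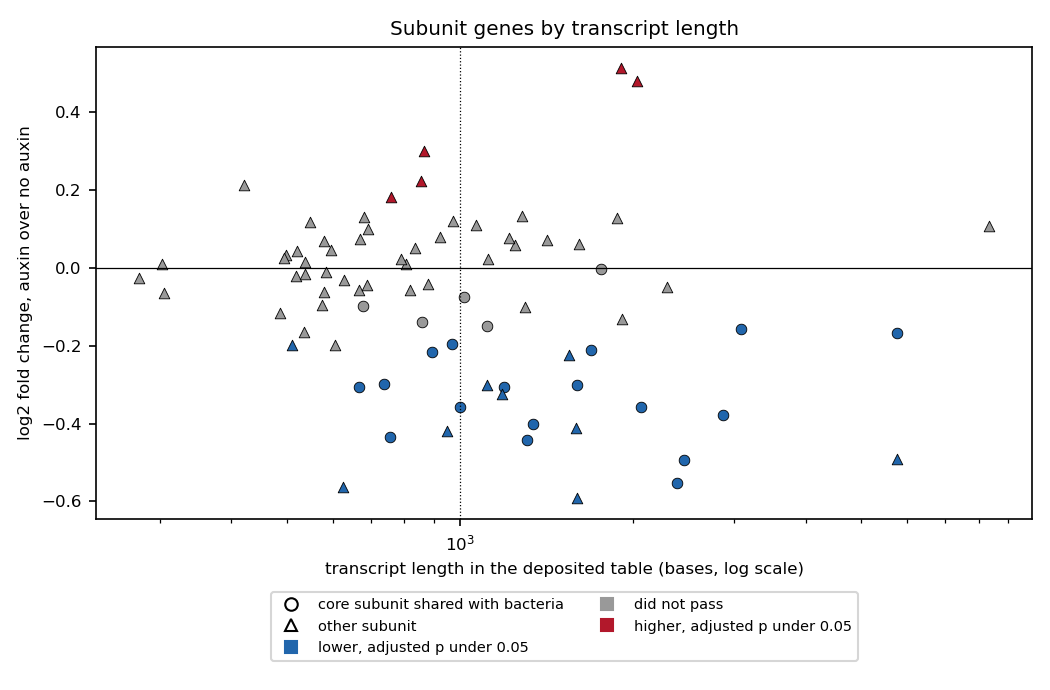
Log2 fold change (auxin over no auxin) against transcript length (bases, log scale) of the 80 subunit genes, with circles for the core subunits shared with bacteria and triangles for the others. Each of the 22 circles lies below 0 (21 with centring), on both sides of the dotted line at 1000 bases, while the triangles spread on both sides of 0. The grouping was made after the values were seen.

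Genes around the respiratory chain give the wider setting, in lists that were also chosen with earlier results of these data known. Of 61 listed assembly factors of complexes I to V, 15 (24.6%) were lower and 9 (14.8%) higher, with a median log2 fold change of -0.04. Beside this and the list counts that follow, 28.9% of all listed genes and 31.9% of protein-coding genes were lower, and 27.8% and 28.0% higher. For complex I the counts were 4 lower and 3 higher of 18. TIMMDC1, a membrane-arm assembly factor, was at 0.647-fold (adjusted p 6.57e-13) and NDUFAF1, which builds the membrane arm, at 1.31-fold (adjusted p 2.15e-04) per the authors' deposited table. Complex III factors had 3 of 7 lower, among them UQCC1 at 0.792-fold per the authors' deposited table (adjusted p 6.97e-06). Complex IV factors had 4 of 27 lower and 4 higher. SURF1, a heme insertion factor, was at 0.694-fold (adjusted p 3.68e-08) per the authors' deposited table. LRPPRC, which stabilises mitochondrial mRNAs, was at 0.723-fold (adjusted p 2.51e-10) and COA6, a copper chaperone, at 1.30-fold (adjusted p 4.05e-05) per the authors' deposited table. Complex V factors had 2 of 5 lower and 2 higher, with DMAC2L at 0.687-fold and TMEM242 at 1.21-fold per the authors' deposited table.

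The citric acid cycle list, with pyruvate entry, had 11 of 19 genes (57.9%) lower and 2 (10.5%) higher, with a median of -0.20, where 31.9% of protein-coding genes were lower. DLST, of the oxoglutarate dehydrogenase complex, was at 0.684-fold (adjusted p 6.93e-19) per the authors' deposited table. PC, pyruvate carboxylase, was at 1.35-fold (adjusted p 5.48e-07) per the authors' deposited table. The list of electron carriers and coenzyme Q synthesis had 6 of 17 (35.3%) lower, a share near that background, and 1 higher, with COQ2 at 0.697-fold per the authors' deposited table (adjusted p 1.35e-08). The protein import list had 13 of 27 (48.1%) lower and 2 (7.41%) higher, with a median of -0.15. PMPCA, of the presequence peptidase, was at 0.688-fold and CHCHD4, an import receptor of the intermembrane space, also at 0.688-fold per the authors' deposited table (adjusted p 1.77e-18 and 7.10e-09).

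Regulators of mitochondrial gene expression had 5 of 18 (27.8%) lower, also near the background, and 3 (16.7%) higher, with a median of -0.02. PPARGC1B, a coactivator of respiratory genes, was at 0.467-fold (adjusted p 1.76e-67) and its relative PPRC1 at 0.703-fold (adjusted p 1.09e-13) per the authors' deposited table. TFB1M, a methyltransferase of mitochondrial ribosomal RNA, was at 0.628-fold (adjusted p 2.70e-16) per the authors' deposited table. The transcription factor NRF1, whose motif is marked in the promoters of SDHA and SDHD above, was at 1.26-fold (adjusted p 4.60e-06) per the authors' deposited table. GABPA and GABPB1, which pair to bind ETS motifs, were both at 1.17-fold per the authors' deposited table (adjusted p 0.00300 and 0.00595). PPARGC1A did not pass, at a log2 fold change of 0.15 per the authors' deposited table. Of 7 alternative tissue isoforms of the subunits 2 were listed, COX6B2 and NDUFA4L2, and 0 passed. The 13 mitochondrially encoded mRNAs were listed in 0 cases, so the balance between the genomes was not measured here.

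**Figure D5:**
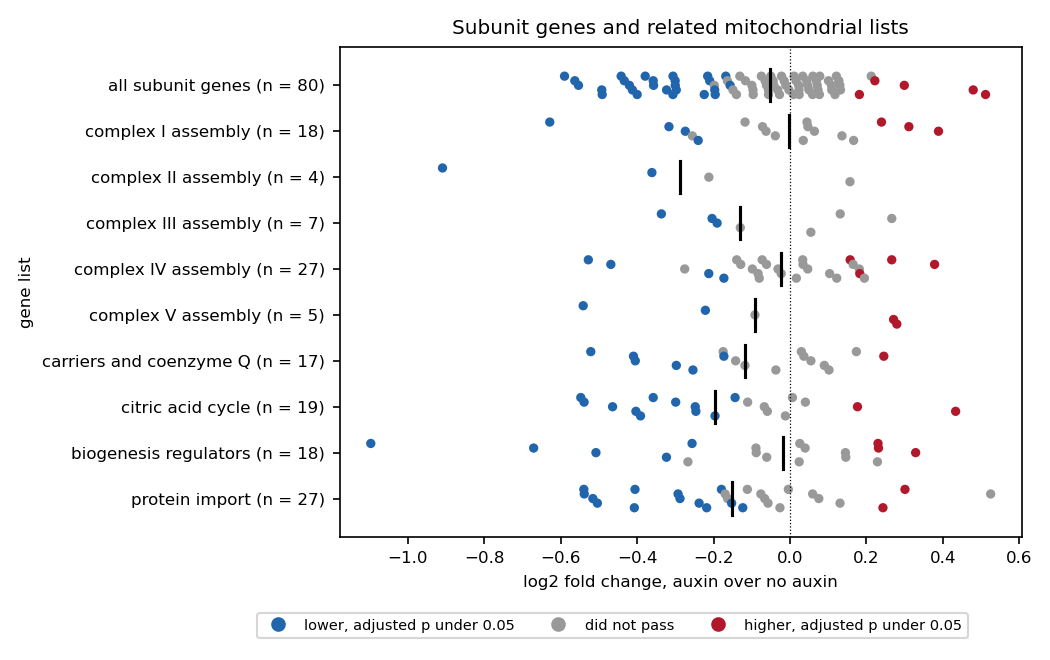
Log2 fold change (auxin over no auxin) of the subunit genes and of 9 related mitochondrial gene lists, without the 2 listed tissue isoforms, with 1 point per listed gene and a black bar at each list's median. Medians of the lists drawn run from -0.29 for the 4 complex II assembly factors to -0.0017 for the 18 complex I assembly factors, and that of the 80 subunit genes is -0.05.

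Of the 80 genes, 47 overlapped no other gene in GENCODE 29. Another gene lay across 21 on the same strand and across 20 on the other strand, among them GABPA over ATP5PF and RBM10 over NDUFB11. The library kit was directional, but the sources used here do not say whether counting used the strand, so for these genes reads of a neighbour may be included. The complex II genes SDHA, SDHB and SDHC had no overlapping gene, nor did NDUFA10, NDUFA4, ATP5IF1 or UQCRC1. Among the lower genes, SDHD, ATP5PO, NDUFA6 and NDUFS8 had an overlapping gene on the same strand. NDUFB5, NDUFS7, ATP5PD, ATP5MC1 and again ATP5PO had an overlapping gene on the other strand.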

How the data were processed

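Per the labels' protocols, Trizol extraction and DNase treatment were followed by removal of ribosomal RNA, and the library kit was directional. The submitters' processing notes name STAR 2.7.3a, DESeq2 and the builds hg38 and dm6. The roles of the builds, the counting tool, the annotation, the model and how the scale was set are not given in the sources used here.

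Per the file headers, the deposited table holds a mean level (a score here, as the authors' normalized means were rounded), a linear fold ratio, a log2 fold change, a p-value and an adjusted p-value. A deposited log2 expression column matched the level per 1000 bases of the numerator group, with a largest difference of 0.0165 in genes at a mean level of at least 100. Group levels were derived on the same basis, and the column does not name that group. A loss of RNA per cell common to all genes could not be told apart from the scaling. The authors' adjusted p at 0.05 was used as planned, and it followed Benjamini-Hochberg adjustment over 14479 genes. An edgeR test was planned only for counts per library, which the table does not give.

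SE, intervals and centring (subtracting -0.0302, the median over genes whose mean level reached 100) were computed. Centring and the derivation of the SE were tried on simulated data whose p-values were made with a Wald test. Such data cannot show whether the deposited p came from a Wald test, and the intervals were not checked on them. The members and lists were chosen with earlier results of these data known. Named genes were each member past the test, the extremes and catalytic subunits of each complex, and up to 3 rises and 3 falls per related list at a mean level of at least 20. Transcript lengths are the authors', and equalled a GENCODE 29 transcript in 9 of 80 genes. Promoters are from RefSeq (GRCh38.p14), with 65 of 80 genes matched by symbol, 56 of them within 100 bases of the deposited gene start. Related genes were matched by gene ID. Values of some single genes are not reported here, though counts and medians include them. The software was pandas 2.3.3 and scipy 1.17.1 with numpy 2.4.6 in Python 3.11.15, and figures were drawn with matplotlib 3.10.9.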

Additional observations from a re-analysis of the deposited data

How the results depend on the processing

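No paired analysis was possible because the table gives no values per library, and for the same reason leaving out a library and other count tests were not run. Counts of subunit genes are given as lower and higher. With a change of at least 1.5-fold the lower counts were 1 in all, 1 in complex I, 0 in complexes II, III, IV and V, 0 of the core genes shared with bacteria and 1 of the others, and the higher counts were 0 in all and 0 in complexes I, IV and V. At an adjusted p of 0.01 the higher counts were 3 in all and 0 in complex I, with COX6B1, NDUFB1, ATP5MC3, UQCRFS1 and NDUFA3 losing their calls. With centring the higher counts were 8 in all, 2 in complex I and 3 in complex V, as ATP5F1E, NDUFA1 and ATP5MPL gained a call, and UQCRFS1 and NDUFA3 lost theirs. Centring turned ATP5F1B, which passed in neither case, to a log2 fold change of 0.028. With NDUFA4 in complex I that complex had 2 higher. Lower counts for all members and for complexes I to V stayed within 1.5 times the reported ones at an adjusted p of 0.01, with centring, at a mean level of at least 100 and over protein-coding genes alone, and the last 2 changed the call of 0 of 89 named genes. The split by core subunits shared with bacteria and its settings were added after the data were seen, and without the subunit c genes 14 of these core genes were lower. Small changes in UQCRHL, whose derived SE was 0.217, were less detectable than in the other subunit genes.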
